A study of Mus musculus with 3 samples.

Results

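Tumour-bearing lung of a mutant mouse was compared with wild type lung, gene by gene, on 1 Affymetrix array per side. The tumour-bearing sample is the one titled KA2 and the control is the one titled WT, so 2 of the 3 arrays of the study enter, chosen by their titles and not by any measured value. The wild type mouse was 16 weeks old and its sample was normal lung. The KA2 mouse was also 16 weeks old and carried the genotype KA/KA-Lori-Ikkα. Its sample held both squamous cell carcinoma (SCC) of the lung and tissue from around the tumour. The third mouse, titled KAT, had the KA2 genotype and age, was treated to deplete macrophages, and gave lung with some inflammation in which no tumour was seen; the agent is not given in the labels. In the published mouse line of this name, KA stands for a kinase-dead form of IKKα and Lori for the loricrin promoter, which acts in differentiating keratinocytes. Where the transgene was expressed in these samples was not measured here. Total RNA came from homogenised lung, from 1 mouse per array. Values therefore carry no error and were not tested, and every statement below describes these arrays and not the genotypes. In RNA from whole tissue, fewer cells of a type and less RNA per cell cannot be told apart.

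IKKα, encoded by Chuk, belongs to the kinases that activate NF-kB and also acts in the nucleus of keratinocytes during their differentiation. Squamous cell carcinoma is built from cells that resemble stratified epithelium: a basal layer with Krt5, Krt14 and Trp63, suprabasal layers held together by desmosomes, and cornifying cells that crosslink small proteins under the membrane. Normal lung has no such layers, and its surface consists of flat and cuboid alveolar cells, ciliated and club cells of the airways, and a dense capillary bed. Macrophages are common in tumours of this type and secrete chemokines, proteases and growth factors.

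Intensities are linear, in arbitrary units, and given with the tumour lung first and the wild type lung second. Genes were named only through the tables that the authors deposited with their comparisons, which list probe sets at least 2-fold apart between some pair of the 3 arrays. They name 2944 genes, of which 2813 passed a level filter that asks the brighter array to be at or above its 50th percentile, an intensity of 128 in wild type lung and 124 in tumour lung. Among these, 1056 (37.5%) stood at least 2-fold above wild type in the tumour lung and 1074 (38.2%) at least 2-fold below, and the median log2 difference was -0.11. These shares are high because the naming picks genes that differ. The counts of each list below are to be set beside them. Over all 24428 probe sets past the same filter, named or not, 2260 (9.25%) were higher and 2541 (10.4%) lower. As deposited, 463 named genes passed 4-fold upward and 348 downward, 136 and 61 passed 16-fold, and 50 and 23 passed 64-fold. This balance turns under the scaling described next, to 220 and 1160 at 4-fold, 78 and 131 at 16-fold, and 27 and 41 at 64-fold. Where the dimmer array lay below its 25th percentile (34.8 in wild type lung, 35.5 in tumour lung), the fold was taken against that percentile and is written as "at least". A fold that exceeds its counterpart in the authors' deposited table by over 1.5 times is followed by that counterpart. Counterparts larger than the fold here are given only for a few type I and secretory cell genes below. Of the 3229 probe sets in the authors' deposited table for this pair, 2907 (90.0%) were also called here, which is 60.5% of the 4801 called here, and the direction was the same for 3225.

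The level of the whole array was set by a scaling that the sources used here do not give. The hybridization controls, added in equal amounts as a rule, had a median of 2046 on the tumour array and 934 on the wild type array, a log2 difference of the medians of 1.13. With those medians set equal, every log2 difference falls by that amount. The median over all probe sets then moves from -0.041 to -1.17. Then 422 named genes are higher and 1465 lower. The order of genes and lists is not affected. The list medians given below keep their sign under that scaling unless the text says otherwise, and medians are best read against the value for all named genes, -0.11. Both samples carried lung genes: Ager, the receptor of alveolar type I cells, read 7189 against 12050. The squamous label was borne out for Krt5 (7347 against 106) and Trp63 (991 against 96.5), while Sox2, a factor often amplified in human lung SCC and chosen here after its value was seen, read 101 against 434. The animals also differed in sex-linked genes. Xist, the RNA of the inactive X chromosome, read 15608 against 188, and the Y-linked Eif2s3y read 11.4 against 1341. The part of sex in the results was not tested; without the 5 sex-linked genes the counts were 1055 and 1070.

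**Figure D1:**
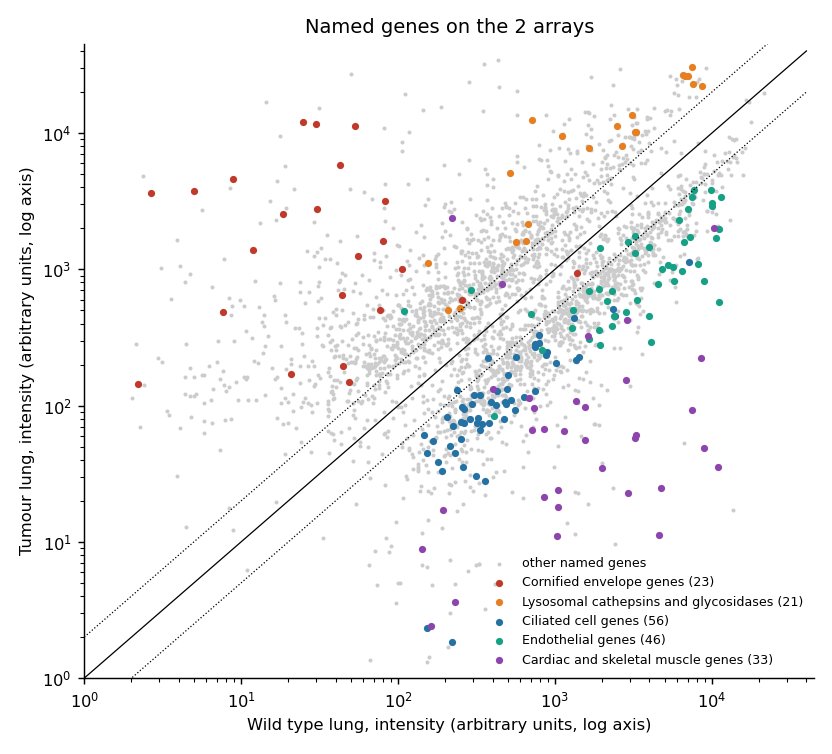
Intensity of each named gene in wild type lung (horizontal, log axis) and tumour lung (vertical, log axis), arbitrary units, with 1 point per gene. The solid line marks equality, the dotted lines mark 2-fold, and 5 gene lists are coloured with their number of genes past the level filter. Cornified envelope genes other than Ppl and all lysosomal genes lie above the line, and 39 of 46 endothelial and 54 of 56 ciliated cell genes lie below the lower dotted line.

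Of the 12 genes ranked highest in the tumour lung by these folds, lower bounds included, 9 were products of squamous epithelium. The ranking depends on the bound: as a plain log2 difference Sprr1b at 10.42 and Stfa3 at 9.56, which are not among the 12, stood above Arg1 at 7.44. Krt6b, a keratin of wounded and fast-growing epidermis, read 16886 against 14.3 and was at least 486-fold higher (189.6-fold by the authors' deposited table). Krtdap, a secreted protein of differentiating keratinocytes, read 9508 against 17.7 and was at least 273-fold higher (139.8-fold by the authors' deposited table). Lgals7, a galectin of stratified epithelium, read 5701 against 19.1 and was at least 164-fold higher (18.8-fold by the authors' deposited table). Crct1, a small cysteine-rich protein from the epidermal gene cluster, read 5792 against 42.9 and was 135-fold higher (34.8-fold by the authors' deposited table). The other 3 of the 12 are not keratinocyte genes. Chil4, a chitinase-like protein of mouse airway and macrophages, read 26919 against 50.5. Arg1, the arginase of alternatively activated macrophages, read 19256 against 111 and was 174-fold higher (93.97-fold by the authors' deposited table). Rnase2a, a ribonuclease of the eosinophil-associated family, read 10840 against 81.8 and was 133-fold higher.

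On the third array, from macrophage-depleted lung without an observed tumour, 9 of those 12 genes read below 100, among them Krt6b at 20.8, Krtdap at 41.5 and Crct1 at 44.5. Chil4 at 1943, Rnase2a at 1144 and Arg1 at 255 were the others.

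Genes of the basal layer were higher with 1 exception past 2-fold: of 13 members past the level filter, from a list of 16, 10 stood at least 2-fold above wild type and 1 at least 2-fold below, and the median log2 difference was 3.15 (2.37 once dim values were set to the 25th percentile). Pitx1, a homeobox factor, read 368 against 30.6 and was at least 10.6-fold higher. Col17a1, the collagen that anchors basal cells to their basement membrane, read 1200 against 135 and was 8.89-fold higher. Igfbp2, an IGF binding protein, went the other way and was 3.72-fold lower. The AP-2 factor Tfap2a was 4.98-fold higher (2.84-fold by the authors' deposited table). All 4 keratins of the stress set were higher. Krt6a read 8563 against 106 and was 80.97-fold higher (35.97-fold by the authors' deposited table), and Krt17 read 4435 against 16.8 and was at least 128-fold higher. Keratins and small proline-rich proteins belong to families of similar sequence, so a value can hold signal of a close relative.

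Suprabasal genes were higher with 1 exception. Of 15 members past the level filter, from a list of 21, 14 stood at least 2-fold above wild type and 1 at least 2-fold below, and the median log2 difference was 3.12. Krt1, the first keratin of the suprabasal epidermis, read 1196 against 36.8 and was 32.5-fold higher (11.8-fold by the authors' deposited table). Lypd3, a membrane-anchored protein of suprabasal cells, was at least 29.2-fold higher, and Sfn, the 14-3-3 protein stratifin, was at least 26.6-fold higher (7.08-fold by the authors' deposited table). Sbsn, encoding suprabasin, read 6159 against 572 and was 10.8-fold higher. Krt13, the keratin of non-cornifying mucosa, read 158 against 10.7 and was at least 4.54-fold higher. Klf4, a factor that drives barrier formation, was the exception: it read 3115 against 6643 and was 2.13-fold lower.

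Cornified envelope genes gave the second highest list median, after the stress keratins. Of 23 members past the level filter, from a list of 38, 22 stood at least 2-fold above wild type and 0 at least 2-fold below, and the median log2 difference was 5.98 (4.49 once dim values were set to the 25th percentile). The small proline-rich proteins, which are crosslinked into the envelope, led. Sprr2f read 11981 against 24.8 and was at least 345-fold higher (152-fold by the authors' deposited table). Sprr1a read 11694 against 29.8 and was at least 336-fold higher (111-fold by the authors' deposited table). Sprr2d was 210.1-fold higher (63.6-fold by the authors' deposited table), and Sprr2h was at least 132-fold higher (54.7-fold by the authors' deposited table). Stfa3, a stefin protease inhibitor, was at least 109-fold higher (54.8-fold by the authors' deposited table). Ivl, the envelope protein involucrin, read 645 against 43.8 and was 14.7-fold higher (8.75-fold by the authors' deposited table). The plakin Ppl, chosen after its value was seen because it alone of the 23 was below wild type, read 942 against 1373. The promoters of these genes are shown because they share a short motif. The window for each gene ran from 250 bases before to 50 after the start in RefSeq (GRCm38.p6). A match to the AP-1 motif TGANTCA on either strand occurred in 12 of 32 promoters of the whole list (37.5%) and in 8.97% of all 27025 genes with a promoter. Stretches of 100 bases from before the start are given 5′ to 3′ on the gene's strand, with the matches in capitals.
Sprr1a: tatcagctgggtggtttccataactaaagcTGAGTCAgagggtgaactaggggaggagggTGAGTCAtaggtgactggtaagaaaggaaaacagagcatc
Sprr1b: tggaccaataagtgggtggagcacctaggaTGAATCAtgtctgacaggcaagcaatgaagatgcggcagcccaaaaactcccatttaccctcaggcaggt
Sprr2f: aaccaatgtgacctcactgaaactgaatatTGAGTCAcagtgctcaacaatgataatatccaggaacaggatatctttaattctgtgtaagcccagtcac
Ivl: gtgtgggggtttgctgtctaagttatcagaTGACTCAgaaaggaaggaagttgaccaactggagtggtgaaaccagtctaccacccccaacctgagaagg
Sprr1a lies on the minus strand at chr3:92485958-92486057, Sprr1b on the minus strand at chr3:92438821-92438920, Sprr2f on the plus strand at chr3:92364960-92365059 and Ivl on the minus strand at chr3:92573782-92573881. All 4 are in 1 region of chromosome 3, the epidermal differentiation complex. A match describes these letters and does not show that a factor binds there.

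Junction genes split by kind. Desmosome genes were mostly higher: of 7 members past the level filter, from a list of 13, 6 stood at least 2-fold above wild type and 0 at least 2-fold below, and the median log2 difference was 3.42. Pkp1, a plakophilin of stratified epithelium, read 2172 against 13.3 and was at least 62.5-fold higher (22.4-fold by the authors' deposited table). The desmocollin gene Dsc2 read 1317 against 69.8 and was 18.9-fold higher, and Dsc3 read 539 against 10.4 and was at least 15.5-fold higher. Dsp, the desmoplakin of all desmosomes, read 10426 against 3760. Dsg2, the desmoglein of simple epithelium, was chosen after its value was seen and read 398 against 531. Tight junction genes showed the opposite tendency. Of 8 members past the level filter, from a list of 23, 2 stood at least 2-fold above wild type and 5 at least 2-fold below, and the median log2 difference was -1.27. Cldn4 read 1735 against 147 and was 11.8-fold higher, and Cldn2 was 7.45-fold higher (4.93-fold by the authors' deposited table). By contrast Cldn5, the claudin of endothelium, read 783 against 4510 and was 5.76-fold lower, and Ocln, encoding occludin, was 2.69-fold lower. Cldn18, the alveolar claudin, read 4974 against 9291. Hemidesmosome and laminin-332 genes gave no common direction: of 5 members past the level filter, from a list of 9, 2 stood at least 2-fold above wild type and 1 at least 2-fold below, and the median log2 difference was 0.93, and with equal control medians the list median was -0.20. Dst, which encodes the plakin dystonin, had 4 probe sets with log2 differences from -1.18 to 5.34, so no direction can be given for it.

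All 17 epithelial proteases and serpins past the filter were higher, of 31 in the list, with a median of 3.40. The kallikreins, serine proteases that cut desmosomes in the shedding epidermis, were represented by Klk7 at 3880 against 21.8, at least 112-fold higher (22.1-fold by the authors' deposited table), and by Klk6 at 3663 against 60.7, 60.3-fold higher. Spink5, which encodes their inhibitor, was higher as well, at 1195 against 7.74, at least 34.4-fold higher (17.2-fold by the authors' deposited table). Serpinb2, an inhibitor of plasminogen activators, read 911 against 45.97 and was 19.8-fold higher. Serpinb5, encoding maspin, was 17.2-fold higher. Both the proteases and their inhibitors thus stood above wild type.

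Gap junction and water channel genes were divided. Of 9 members past the level filter, from a list of 16, 6 stood at least 2-fold above wild type and 3 at least 2-fold below, and the median log2 difference was 2.02. Gjb2, encoding connexin 26, read 5852 against 197 and was 29.8-fold higher. Aqp3, the glycerol channel of basal keratinocytes, read 878 against 88.5 and was 9.91-fold higher (5.07-fold by the authors' deposited table). Aqp1, the water channel of lung capillaries, read 1768 against 6098 and was 3.45-fold lower, and Aqp4 was 4.16-fold lower.

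**Figure D2:**
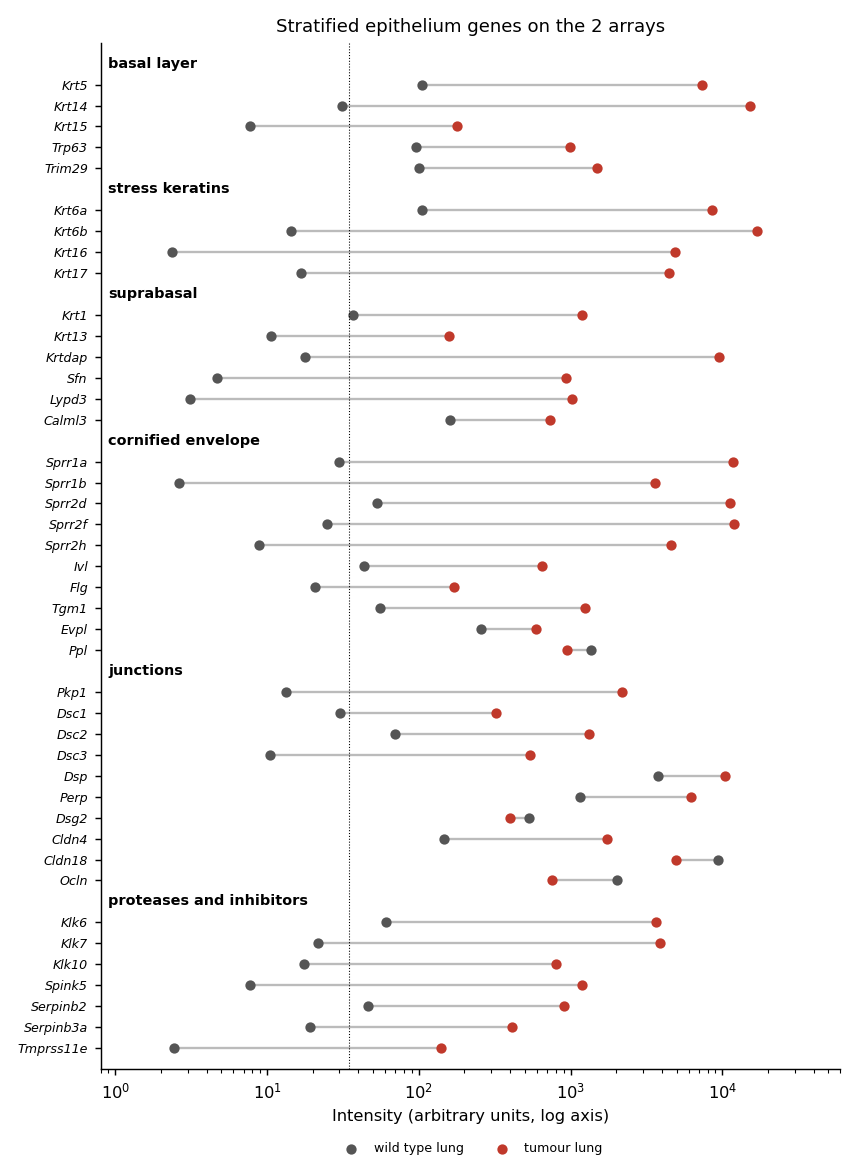
Intensity of genes of stratified epithelium in wild type lung (grey) and tumour lung (red), arbitrary units, log axis, with 1 point per array. The dotted line marks the 25th percentile of the wild type array, 34.8. Basal, stress, suprabasal and cornified genes move to the right in tumour lung except Ppl, and Dsg2, Cldn18 and Ocln move to the left.

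Genes of proliferation were higher by smaller factors. For mitosis, of 23 members past the level filter, from a list of 63, 22 stood at least 2-fold above wild type and 1 at least 2-fold below, and the median log2 difference was 1.66. Birc5, the survivin of the chromosomal passenger complex, read 345 against 74.5 and was 4.63-fold higher. Cdk1, the kinase that starts mitosis, read 381 against 84.9 and was 4.49-fold higher, and Cks2, a small subunit that binds it, was 5.17-fold higher (3.12-fold by the authors' deposited table). Tpx2, a spindle assembly factor, was 4.65-fold higher (2.38-fold by the authors' deposited table). The exception was Stmn1, a microtubule destabiliser, which read 2257 against 6040 and was 2.68-fold lower. For DNA replication, of 10 members past the level filter, from a list of 33, 8 stood at least 2-fold above wild type and 0 at least 2-fold below, and the median log2 difference was 1.40. Rrm2, a subunit of ribonucleotide reductase, read 952 against 179 and was 5.31-fold higher, and Ccne1, the cyclin that starts S phase, was at least 12.6-fold higher (2.59-fold by the authors' deposited table). With equal control medians the medians were 0.53 for mitosis and 0.27 for replication, with 6 and 2 genes still 2-fold higher.

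The CHR motif TTTGAA, known from promoters of cell cycle genes, matched on either strand in 39 of 53 promoters of the mitosis list (73.6%) and in 20.2% of all genes. The windows of Cdk1 and Mki67 are shown because each holds the motif 2 times close to the start, in capitals.
Cdk1: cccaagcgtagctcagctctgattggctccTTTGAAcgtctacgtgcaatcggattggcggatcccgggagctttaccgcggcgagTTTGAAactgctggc
Mki67: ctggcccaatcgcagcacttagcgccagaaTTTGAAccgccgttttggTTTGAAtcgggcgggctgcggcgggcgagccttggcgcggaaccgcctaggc
The Cdk1 stretch lies on the minus strand at chr10:69352913-69353013 and the Mki67 stretch on the minus strand at chr7:135716426-135716525. Mki67, the nuclear protein used as a marker of cycling cells, read 715 against 159.

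Growth factor and metabolic genes were mixed. The list of EGF receptor ligands and regulators gave 4 higher and 0 lower of 6, and 2 higher and 2 lower with equal control medians. Epgn, encoding epigen, read 278 against 41.1 and was 6.76-fold higher (2.63-fold by the authors' deposited table), and Areg, encoding amphiregulin, read 341 against 82.4 and was 4.14-fold higher (2.29-fold by the authors' deposited table). The IGF axis ran mostly the other way, with 1 higher and 4 lower of 7 genes. Igfbp6, a binding protein that favours IGF-II, read 955 against 5572 and was 5.83-fold lower, and the receptor gene Igf1r read 848 against 2163, while the ligand Igf1 read 4167 against 367. Leaving out probe sets of shared sequence, this list's median of -1.35 became 0.34. These are probe sets whose names mark sequence shared between genes or between transcripts of the same gene. Those of Igfbp2 and Igfbp5, both lower, were among the ones left out.

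Glycolytic and hypoxia response genes were mostly higher as deposited. Of 19 members past the level filter, from a list of 37, 12 stood at least 2-fold above wild type and 1 at least 2-fold below, and the median log2 difference was 1.53. With equal control medians 4 were higher and 3 lower, and the median was 0.40. Egln3, an oxygen-sensing prolyl hydroxylase that is itself induced by hypoxia, read 2811 against 81.6 and was 34.4-fold higher. Hk3, the hexokinase of myeloid cells, read 2642 against 216 and was 12.2-fold higher. Car12, a membrane carbonic anhydrase, was 11.9-fold higher (6.13-fold by the authors' deposited table). Slc2a1, the glucose transporter GLUT1, read 4066 against 770.0 and was 5.28-fold higher, and Ldha, the lactate dehydrogenase subunit, read 14591 against 5056. Vegfa and Hilpda, which also belong to the hypoxia response, were not higher: Vegfa, made by alveolar epithelium in normal lung, read 3219 against 6429, and Hilpda, a lipid droplet protein, read 1368 against 3788.

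Macrophage genes were higher, and by factors that differed widely. Of 19 members past the level filter, from a list of 32, 15 stood at least 2-fold above wild type and 0 at least 2-fold below, and the median log2 difference was 2.25. Ms4a7, a membrane protein of mature macrophages, read 5006 against 245 and was 20.4-fold higher. Msr1, a scavenger receptor for modified lipoprotein, was 20.2-fold higher, although its 4 probe sets ran from 2.46 to 7.29 in log2 difference. Cd14, the lipopolysaccharide co-receptor, read 4565 against 897. Genes of lipid-laden macrophages behaved alike: of 13 members past the level filter, from a list of 17, 13 stood at least 2-fold above wild type and 0 at least 2-fold below, and the median log2 difference was 1.90. With equal control medians 5 of them were still 2-fold higher and 0 were lower. Gpnmb, a transmembrane glycoprotein of such cells, read 21879 against 438 and was 50.01-fold higher, and Lgals3, encoding galectin-3, read 26222 against 5419 and was 4.84-fold higher. Fabp5 is also a keratinocyte gene and appears in the suprabasal list too. It read 24091 against 6418 and was 3.75-fold higher.

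Genes of resident alveolar macrophages were divided, as were the named genes as a whole (37.5% higher and 38.2% lower). Of 11 members past the level filter, from a list of 21, 5 stood at least 2-fold above wild type and 5 at least 2-fold below. The median log2 difference was -0.30. With equal control medians 3 were higher and 6 lower, and the median was -1.43. Fabp1, a fatty acid binding protein, read 24.9 against 2342 and was at least 65.9-fold lower (26.5-fold by the authors' deposited table), and Krt79 read 60.8 against 656 and was 10.8-fold lower (7.11-fold by the authors' deposited table). Atp6v0d2, a subunit of the vacuolar proton pump, read 9561 against 1108 and was 8.63-fold higher, and Slc7a2, an arginine transporter, was 5.79-fold higher. Krt79, Cidec and Fabp1 are also expressed in other tissues, epithelium and fat among them.

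Every one of the 21 lysosomal enzyme genes past the filter was at least 2-fold higher, of 30 in the list, with a median of 1.89. With equal control medians 7 were still 2-fold higher, and none was lower. With quantile normalization 20 were at least 2-fold higher, and the median was 1.54. Ctsk, encoding cathepsin K, read 12476 against 716 and was 17.4-fold higher (11.6-fold by the authors' deposited table). Acp5, the tartrate-resistant acid phosphatase, read 5071 against 519 and was 9.76-fold higher. Gla, which encodes α-galactosidase A, was 7.14-fold higher. The E-box CACGTG, which lysosomal gene promoters are known to carry, matched in 9 of 23 promoters of the list (39.1%) and in 8.09% of all genes. The motif is its own reverse complement, so both strands give the same matches. The stretches of Gla and of Lgmn, the gene of legumain, are shown with the motif in capitals; Lgmn was chosen after its value was seen and read 13665 against 3106.
Gla: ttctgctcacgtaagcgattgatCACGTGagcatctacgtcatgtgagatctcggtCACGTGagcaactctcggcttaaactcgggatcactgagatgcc
Lgmn: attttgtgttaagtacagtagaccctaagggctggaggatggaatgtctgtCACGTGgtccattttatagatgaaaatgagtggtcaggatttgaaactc
Gla lies on the minus strand at chrX:134601156-134601255 and Lgmn on the minus strand at chr12:102439093-102439192.

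Enzymes of arginine, tryptophan and itaconate metabolism were all higher among the 4 named, with a median of 4.52. That median fell to 2.92 once dim values were raised in the way described for the basal layer genes. Arg2, the mitochondrial arginase, read 1431 against 195 and was 7.34-fold higher. Tdo2, a tryptophan dioxygenase, was 7.78-fold higher, and Acod1, which makes itaconate, was at least 6.04-fold higher (2.67-fold by the authors' deposited table). Nos2, the inducible nitric oxide synthase, was not named by the tables and is not analysed here.

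Chitinase-like and other genes of type 2 airway inflammation were higher. Of 20 members past the level filter, from a list of 29, 18 stood at least 2-fold above wild type and 1 at least 2-fold below, and the median log2 difference was 2.84. Itln1, encoding intelectin-1, read 1607 against 42.5 and was 37.8-fold higher (24.00-fold by the authors' deposited table). Clca3a2, a calcium-activated chloride channel regulator, was at least 23.7-fold higher. Ccl11, an eotaxin that attracts eosinophils, read 3302 against 156 and was 21.2-fold higher. A second eotaxin gene, Ccl24, read 1431 against 32.5 and was at least 41.2-fold higher (7.49-fold by the authors' deposited table). Il13ra2, the decoy receptor for IL-13, was at least 16.8-fold higher (7.67-fold by the authors' deposited table). The epithelial cytokine gene Tslp was the exception, at 104 against 217. Of 17 markers of mast cells, basophils and eosinophils only 3 were named. The 2 that passed the filter were lower: Kit, the stem cell factor receptor, read 1409 against 4625, and Gata2 read 568 against 2999. Both are known from other cells too, endothelium among them.

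Complement and acute phase genes were higher with 1 exception. Of 13 members past the level filter, from a list of 30, 11 stood at least 2-fold above wild type and 1 at least 2-fold below, and the median log2 difference was 3.03. C3ar1, the receptor for the fragment C3a, read 4567 against 154 and was 29.7-fold higher. C1qa, a chain of C1q made by macrophages, read 10360 against 969 and was 10.7-fold higher. Itih4, an acute phase protein, read 14257 against 1543 and was 9.24-fold higher. Cfd, the complement factor made by fat cells, was the lower one, at 9.58 against 2423, and moved with the other fat cell genes described below.

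Neutrophil genes were mostly higher, with a pair of receptor genes against them. Of 18 members past the level filter, from a list of 31, 11 stood at least 2-fold above wild type and 2 at least 2-fold below, and the median log2 difference was 1.76. With equal control medians 7 were higher and 4 lower. S100a9, a subunit of calprotectin, read 14352 against 1614 and was 8.89-fold higher, and Lcn2, encoding lipocalin-2, read 25803 against 1707 and was 15.1-fold higher. Stfa2l1, a stefin of neutrophils, was at least 29.9-fold higher (13.4-fold by the authors' deposited table). Mmp8, the neutrophil collagenase, read 830.0 against 115 and was 7.19-fold higher. Fpr1, a receptor for formyl peptides, read 105 against 592 and was 5.65-fold lower. The related Fpr2 read 279 against 1328 and was 4.75-fold lower. Mmp9 read 661 against 494.

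Chemokine genes for monocytes and neutrophils were higher. For the CC chemokines, of 15 members past the level filter, from a list of 20, 11 stood at least 2-fold above wild type and 2 at least 2-fold below, and the median log2 difference was 3.97. Ccl3, which attracts monocytes and T cells, was at least 21.6-fold higher (12.5-fold by the authors' deposited table), and Ccl7 was at least 39.2-fold higher (18.5-fold by the authors' deposited table). Ccl5, a product of T and NK cells, read 567 against 1242 and was 2.19-fold lower. Among the other chemokine genes, of 9 members past the level filter, from a list of 17, 6 stood at least 2-fold above wild type and 1 at least 2-fold below, and the median log2 difference was 2.45. The ligands of the neutrophil receptor CXCR2 led. Cxcl5 read 1336 against 30.3 and was at least 38.4-fold higher. Cxcl2 read 838 against 42.4 and was 19.8-fold higher (8.03-fold by the authors' deposited table). Cxcl3, their close relative in sequence, read 436 against 31.2 and was at least 12.5-fold higher. Cxcl1 read 1254 against 84.1 and was 14.9-fold higher (4.76-fold by the authors' deposited table). Cxcl12, a stromal chemokine, read 5192 against 949 and was 5.47-fold higher. Ppbp, a chemokine of platelets, was lower at 1053 against 2729.

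The kappa B motif, spelled GGGA, any 2 bases and TTCC, matched on either strand in 4 of 13 promoters of the CXC list (30.8%) and in 1.63% of all genes. The promoters of Cxcl1, Cxcl2 and Cxcl3 are shown because all 3 hold the same palindromic run, in capitals, in which a match on each strand overlaps the other.
Cxcl1: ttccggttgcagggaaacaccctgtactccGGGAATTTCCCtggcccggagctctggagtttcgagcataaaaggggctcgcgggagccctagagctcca
Cxcl2: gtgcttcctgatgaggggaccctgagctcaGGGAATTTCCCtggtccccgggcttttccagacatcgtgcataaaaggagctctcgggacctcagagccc
Cxcl3: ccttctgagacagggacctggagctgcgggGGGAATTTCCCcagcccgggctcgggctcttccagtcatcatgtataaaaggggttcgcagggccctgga
The genes lie on the plus strand at chr5:90891144-90891243, chr5:90903772-90903871 and chr5:90785998-90786097, and the match starts 71, 97 and 73 bases before the start.

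Receptors of myeloid cells followed the macrophage genes as deposited. Of 36 members past the level filter, from a list of 60, 24 stood at least 2-fold above wild type and 5 at least 2-fold below, and the median log2 difference was 1.61. With equal control medians 13 were higher and 10 lower. Fcgr2b, the inhibitory receptor for IgG, read 13656 against 574 and was 23.8-fold higher. Pirb, an inhibitory receptor for class I molecules, was 8.38-fold higher (5.05-fold by the authors' deposited table), and Cd300lb read 2522 against 313 and was 8.07-fold higher. Some of the lower members are known from other cells. Clec1a, a lectin of endothelium, read 483 against 2848. Clec1b, the podoplanin receptor of platelets, read 118 against 708. Scara5, a ferritin receptor of fibroblasts, read 72.01 against 1028 and was 14.3-fold lower (9.20-fold by the authors' deposited table). Chemokine receptors gave 6 higher and 1 lower of 11. These became 4 higher and 5 lower with equal control medians. Ccr1, the receptor for CCL3 and related ligands, read 2195 against 191 and was 11.5-fold higher. Ackr2, a decoy receptor of lymphatic and other endothelium, read 1102 against 3064.

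Cytokine genes with large differences included antagonists as well as agonists. For interleukins and their receptors, of 17 members past the level filter, from a list of 53, 11 stood at least 2-fold above wild type and 1 at least 2-fold below, and the median log2 difference was 1.93. With equal control medians 7 were higher and 4 lower. Il1rn, the antagonist of the IL-1 receptor, read 2764 against 226 and was 12.2-fold higher, whereas Il1b read 769.9 against 467. Il1f9, now called IL-36γ and made by keratinocytes, read 1395 against 119 and was 11.7-fold higher (6.04-fold by the authors' deposited table). Il6 read 311 against 11.7 and was at least 8.94-fold higher. Il18 was the interleukin that was lower, at 946 against 2105. Of the TNF family, of 16 members past the level filter, from a list of 38, 10 stood at least 2-fold above wild type and 2 at least 2-fold below, and the median log2 difference was 1.31. The counts were 3 higher and 4 lower with equal control medians. Tnfrsf9, the co-stimulatory receptor 4-1BB, read 657 against 85.1 and was 7.73-fold higher (2.65-fold by the authors' deposited table). Tnfsf11, encoding RANKL, was at least 6.02-fold higher (3.40-fold by the authors' deposited table). Tnfrsf11b, encoding its decoy receptor osteoprotegerin, was 6.10-fold higher. Tnfrsf19 read 212 against 1670 and was 7.89-fold lower, and Tnfsf10, encoding TRAIL, was 2.64-fold lower.

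T cell genes had a median near the 2-fold line as deposited, with Pdcd1, Ctla4 and Il7r at the top. Of 22 members past the level filter, from a list of 38, 13 stood at least 2-fold above wild type and 0 at least 2-fold below, and the median log2 difference was 1.24. Pdcd1, encoding PD-1, read 324 against 14.9 and was at least 9.31-fold higher (5.56-fold by the authors' deposited table). Ctla4 read 621 against 72.7 and was 8.54-fold higher (4.75-fold by the authors' deposited table), and the co-stimulatory receptor gene Icos read 699.8 against 150.2 and was 4.66-fold higher. Il7r read 6310 against 815 and was 7.74-fold higher, and Havcr2 read 582 against 244 and was 2.38-fold higher. Cd8a read 196 against 86.7. The other 9 of the 22 were under 2-fold, among them Cd2 at 439 against 448. With equal control medians the list median was 0.11, with 4 genes higher and 3 lower. Genes of B lineage cells were divided, with 12 higher and 6 lower of 22. These became 6 higher and 10 lower with equal control medians. Jchain, the chain that joins IgA and IgM, read 11665 against 1145 and was 10.2-fold higher. Derl3, a protein of the secretory pathway, read 645 against 97.4 and was 6.62-fold higher (2.63-fold by the authors' deposited table). Cr2, encoding a complement receptor of mature B cells, read 40.2 against 144 and was 3.59-fold lower (2.39-fold by the authors' deposited table). Fcmr, the receptor for IgM, read 156 against 497 and was 3.19-fold lower. Other B cell genes went the other way, among them Blnk, an adaptor of the B cell receptor, at 3044 against 479, 6.35-fold higher. Gzma, a granzyme of cytotoxic cells, read 235 against 735 and was 3.12-fold lower. The antigen presentation genes had a median of 0.77, which was -0.36 with equal control medians. In that list Pdcd1lg2, a ligand of PD-1, read 302 against 81.4 and was 3.71-fold higher.

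Interferon response genes gave no common direction, nor did the named genes as a whole (37.5% higher and 38.2% lower). Of 9 members past the level filter, from a list of 33, 3 stood at least 2-fold above wild type and 4 at least 2-fold below, and the median log2 difference was 0.21, and -0.92 with equal control medians. Ifi202b read 1663 against 276 and was 6.04-fold higher. Cxcl9, a chemokine induced by interferon-γ, read 237 against 44.5 and was 5.32-fold higher. Ifit2, induced by type I interferon, read 294 against 1107 and was 3.77-fold lower. Its relative Ifit3 read 409.9 against 1137 and was 2.78-fold lower.

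**Figure D3:**
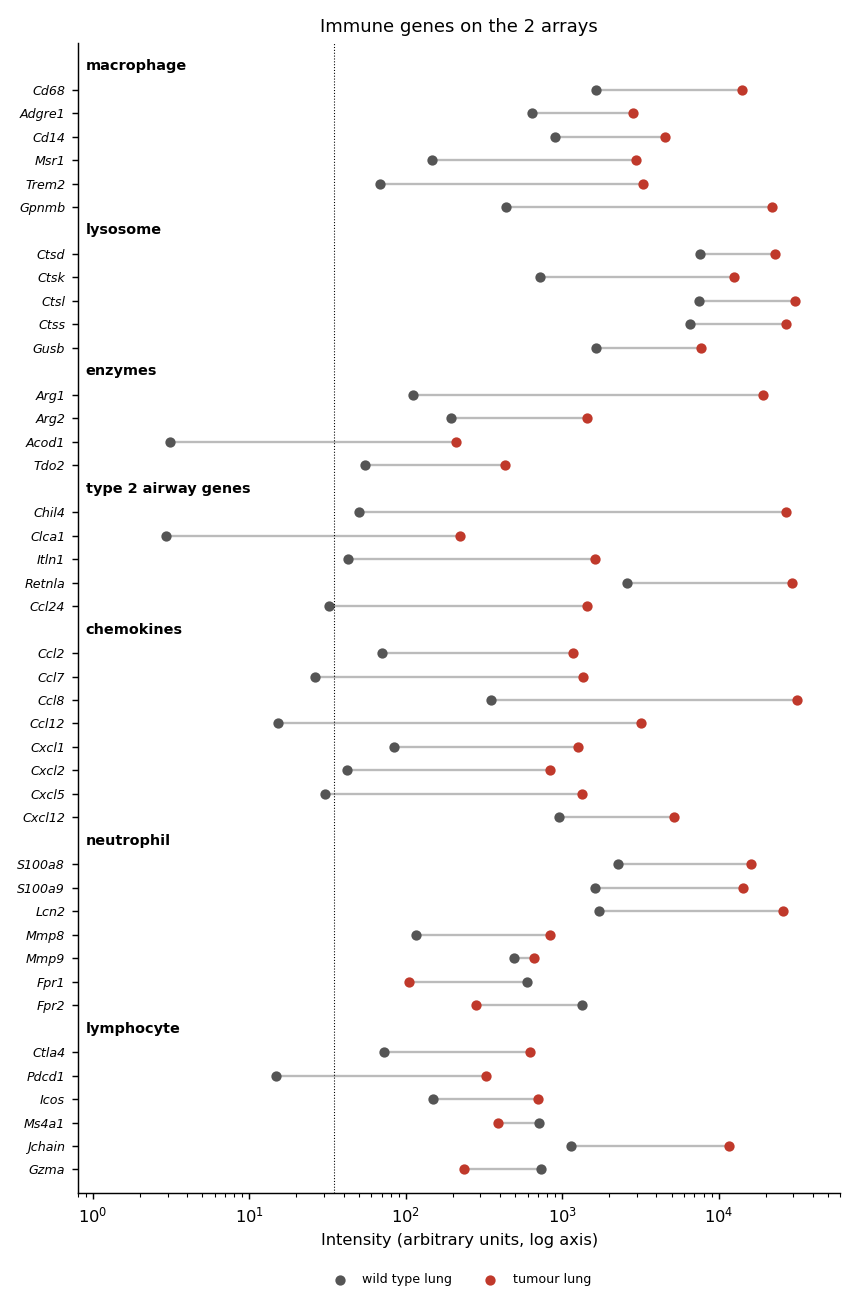
Intensity of immune genes in wild type lung (grey) and tumour lung (red), arbitrary units, log axis, with 1 point per array. The dotted line marks the 25th percentile of the wild type array, 34.8. Macrophage, lysosomal, enzyme, type 2 and chemokine genes all lie to the right in tumour lung, while Fpr1, Fpr2, Ms4a1 and Gzma lie to the left.

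Matrix genes were divided, as were the named genes as a whole (37.5% higher and 38.2% lower). For collagens, of 23 members past the level filter, from a list of 30, 8 stood at least 2-fold above wild type and 7 at least 2-fold below, and the median log2 difference was 0.56, which became -0.57 with equal control medians (2 higher and 9 lower). Among fibrillar collagens, Col1a1 read 2870 against 488 and was 5.88-fold higher. Col5a2 read 9852 against 1581 and was 6.23-fold higher. Col4a3, a basement membrane chain of the alveolus, read 663 against 2644 and was 3.99-fold lower. The transmembrane collagen gene Col13a1 read 384 against 2241 and was 5.84-fold lower. Other matrix genes were divided too, with 14 higher and 9 lower of 34. The counts were 3 higher and 14 lower with equal control medians. Tnc, the tenascin of wounds and tumours, read 3984 against 405 and was 9.85-fold higher. Fmod, encoding fibromodulin, read 1920 against 335 and was 5.73-fold higher, and Fn1, encoding fibronectin, read 24814 against 8239. Tnxb, the tenascin of loose connective tissue, read 114 against 1750 and was 15.3-fold lower, and Ltbp4, needed for elastic fibres, was 6.38-fold lower.

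Genes of proteases that act on this matrix, counted together with their inhibitors, were mostly higher. Of 15 members past the level filter, from a list of 39, 10 stood at least 2-fold above wild type and 0 at least 2-fold below, and the median log2 difference was 2.31. Adam8, a metalloproteinase of leukocytes, read 6777 against 572 and was 11.8-fold higher. Timp1, an inhibitor of metalloproteinases, read 4997 against 367 and was 13.6-fold higher, while Timp3, the inhibitor bound to matrix, read 5625 against 8954. Adamts4, which cuts proteoglycans, was at least 10.7-fold higher (2.64-fold by the authors' deposited table).

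Fibroblast genes of normal lung were lower. Of 20 members past the level filter, from a list of 30, 4 stood at least 2-fold above wild type and 12 at least 2-fold below, and the median log2 difference was -1.22. Tcf21, a factor of lung fibroblasts, read 1901 against 9266 and was 4.87-fold lower. Wnt2, a signal of the lung mesenchyme, read 128 against 1396 and was 10.9-fold lower, and Slc7a10, an amino acid transporter, read 100.1 against 1905 and was 19.03-fold lower. The members that were higher included Inhba, the activin A subunit, at 1346 against 281, 4.79-fold higher, and Ccn1, a matricellular protein, at 4432 against 1141, 3.88-fold higher.

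Endothelial genes were mostly lower. Of 46 members past the level filter, from a list of 54, 2 stood at least 2-fold above wild type and 39 at least 2-fold below, and the median log2 difference was -1.97. Hpgd, which breaks down prostaglandins and is high in lung endothelium, read 578 against 11042 and was 19.1-fold lower. Bmp6 read 292 against 4116 and was 14.1-fold lower. Foxf1, a factor of lung endothelium and mesenchyme, read 1091 against 8135 and was 7.45-fold lower, and Fendrr, the noncoding RNA transcribed next to it, was 6.95-fold lower. Ednrb, the endothelin receptor of lung capillary cells, was 8.77-fold lower. Cdh5, the cadherin of endothelial junctions, read 1702 against 10663 and was 6.26-fold lower. Only 2 of the 46 were at least 2-fold higher, and both are known from venules that admit leukocytes. Ackr1 read 492 against 109 and was 4.49-fold higher (2.34-fold by the authors' deposited table). Selp, encoding P-selectin, read 705 against 289.9 and was 2.43-fold higher. Smooth muscle and pericyte genes were lower in 8 of 12, with Myh11, the smooth muscle myosin, at 819 against 3063. Rgs5, a marker of pericytes, was the one that was higher, at 7754 against 1056, 7.34-fold higher. Of 8 mesothelial genes 6 were lower, and Msln, encoding mesothelin, read 786 against 781. Of 7 nerve and glial genes 5 were lower.

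Muscle genes were lower by large factors. Fat and muscle lie next to lung in the chest. For cardiac and skeletal muscle, of 33 members past the level filter, from a list of 50, 1 stood at least 2-fold above wild type and 31 at least 2-fold below, and the median log2 difference was -4.81 (-4.14 once dim values were set to the 25th percentile). Myl7, the light chain of atrial myosin, read 48.6 against 8898 and was 183-fold lower, and Tnni3, cardiac troponin I, read 24.9 against 4703 and was at least 132-fold lower. Nppa, the atrial natriuretic peptide, read 34.6 against 2002 and was at least 56.3-fold lower (26.6-fold by the authors' deposited table). Corin, a protease of heart muscle that is also expressed elsewhere, was the one that was higher, at 2374 against 219.8. Of 14 adipocyte genes 9 were lower and 3 higher. Car3, a carbonic anhydrase of muscle and fat, read 52.9 against 6677 and was 126-fold lower (77.6-fold by the authors' deposited table), and Adipoq, encoding adiponectin, read 35.3 against 979 and was at least 27.6-fold lower (17.9-fold by the authors' deposited table). Cardiac muscle is known to line the pulmonary veins of mice, and how much muscle or fat each sample held was not measured. The part of dissection in these differences was not tested. Without both lists the counts over all named genes were 1052 and 1034.

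Genes of the normal lung surface were lower for type I alveolar cells, secretory cells and ciliated cells. For type I cells, of 24 members past the level filter, from a list of 32, 0 stood at least 2-fold above wild type and 16 at least 2-fold below, and the median log2 difference was -1.21. Akap5, an anchoring protein of these flat cells, read 613 against 3523 and was 5.74-fold lower, and Rtkn2 read 741 against 2955 and was 3.99-fold lower. Clic5, an intracellular channel protein, read 2673 against 9313 and was 3.48-fold lower. Ager and Hopx, the usual markers of type I cells, read 7189 against 12050 and 6949 against 13731, both under 2-fold here. By the authors' deposited table Ager was 2.38-fold and Hopx 3.31-fold lower, and another Hopx probe set had a log2 difference of -1.54. By the authors' ratios 22 of the 24 type I genes were at least 2-fold lower, and 21 were with quantile normalization. Only 7 type II genes passed, and none of them is one of the surfactant protein genes that define the cell. Their median was 0.59, and -0.54 with equal control medians. Acoxl, a marker of type II cells, read 351 against 1994 and was 5.68-fold lower, whereas Il33, an alarmin of these cells and others, read 9638 against 2535 and was 3.80-fold higher.

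Secretory cell genes of the airway were lower with 1 exception. Of 25 members past the level filter, from a list of 39, 1 stood at least 2-fold above wild type and 19 at least 2-fold below, and the median log2 difference was -1.77. Reg3g, a lectin that binds bacteria, read 19.1 against 1614 and was at least 45.4-fold lower (24.97-fold by the authors' deposited table). Bpifb1 read 106 against 934 and was 8.80-fold lower, and Lypd2 read 13.7 against 1191 and was at least 33.5-fold lower (7.90-fold by the authors' deposited table). Cyp2f2, the cytochrome of club cells, read 4945 against 15749 and was 3.18-fold lower (7.23-fold by the authors' deposited table). The secretoglobin Scgb3a2 read 7813 against 16133 and was 2.06-fold lower (4.55-fold by the authors' deposited table). Pigr, the receptor that carries IgA across epithelium, was higher at 12680 against 1224, 10.4-fold higher. Enzymes of xenobiotic and aldehyde metabolism, many of them made by club cells, were lower in 31 of 40 and higher in 5. Sult1d1, a sulfotransferase, read 23.1 against 1335 and was at least 37.6-fold lower (21.3-fold by the authors' deposited table), and Cyp2e1 read 130.3 against 1340 and was 10.3-fold lower (5.06-fold by the authors' deposited table). Aldh1a3, an enzyme that makes retinoic acid, went the other way at 691 against 51.6, 13.4-fold higher (5.60-fold by the authors' deposited table).

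Ciliated cell genes were lower almost without exception. Of 56 members past the level filter, from a list of 148, 0 stood at least 2-fold above wild type and 54 at least 2-fold below, and the median log2 difference was -2.02. Tppp3, a microtubule protein of ciliated cells, read 1134 against 7138 and was 6.29-fold lower. Dnaic2, an intermediate chain of outer dynein arms, read 28.03 against 358 and was at least 10.1-fold lower (5.68-fold by the authors' deposited table). Ttc29, needed for cilia in mammals, read 30.4 against 313 and was at least 8.79-fold lower (2.96-fold by the authors' deposited table). Of the 56, 54 lay at or beyond 2-fold, and with equal control medians all 56 did. The motif GTTGCC, an arm of the X-box that RFX factors are known to bind, matched on either strand in 51 of 117 promoters of the list (43.6%) and in 14.1% of all genes. The promoters of Tekt1, Lrrc23 and Mns1, chosen after their values were seen, are shown with the matches in capitals, and GGCAAC is the same motif on the other strand.
Tekt1: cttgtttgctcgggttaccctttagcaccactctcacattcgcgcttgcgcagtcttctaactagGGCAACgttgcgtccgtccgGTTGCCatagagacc
Lrrc23: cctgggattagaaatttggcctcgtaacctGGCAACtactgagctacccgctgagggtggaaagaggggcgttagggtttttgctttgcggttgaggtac
Mns1: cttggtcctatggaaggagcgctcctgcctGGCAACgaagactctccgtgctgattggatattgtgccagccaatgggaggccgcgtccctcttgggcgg
Tekt1, which encodes a protein of the ciliary microtubules, lies on the minus strand at chr11:72361883-72361982 and read 44.7 against 232. Lrrc23, a radial spoke protein, lies on the minus strand at chr6:124779815-124779914 and read 128 against 748. Mns1 lies on the plus strand at chr9:72438427-72438526 and read 38.7 against 178.

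**Figure D4:**
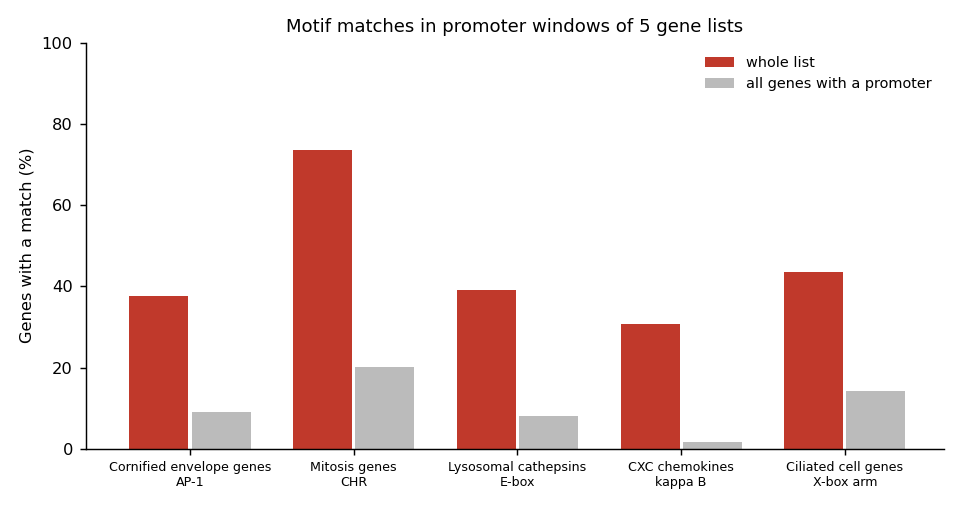
Share of genes (percent, vertical axis) with at least 1 match to a motif in the window from 250 bases before to 50 after the start, for 5 whole gene lists (red) and all 27025 genes with a promoter (grey). The pairs are AP-1 in cornified envelope genes, 37.5% against 8.97%, CHR in mitosis genes, 73.6% against 20.2%, E-box in lysosomal genes, 39.1% against 8.09%, kappa B in CXC chemokines, 30.8% against 1.63%, and the X-box arm in ciliated cell genes, 43.6% against 14.1%.

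These 5 pairs of list and motif were picked from 11 motifs after the shares were seen, so they describe the lists and support nothing. Among genes past 2-fold, AP-1 matched in 10 of 19 cornified envelope genes and CHR in 15 of 19 mitosis genes. E-box matched in 8 of 17 lysosomal genes, kappa B in 3 of 6 chemokine genes, and the X-box arm in 25 of 44 ciliated cell genes.

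IKKα acts through NF-kB, and its gene Chuk was not named by the tables and is not analysed here. For NF-kB subunits, inhibitors and adaptors, of 11 members past the level filter, from a list of 26, 7 stood at least 2-fold above wild type and 0 at least 2-fold below, and the median log2 difference was 1.02, and the sign turned with equal control medians, to -0.11. Bcl3, a nuclear IκB protein, read 846 against 181 and was 4.69-fold higher (2.70-fold by the authors' deposited table). Ikbke, an IKK-related kinase, read 465 against 128 and was 3.63-fold higher, and Tnfaip3, the A20 inhibitor, read 2095 against 805 and was 2.60-fold higher. Nfkb2 and Relb, the pair of subunits that IKKα is known to activate, read 301 against 149 and 722 against 351. Nfkbia, the inhibitor IκBα, read 4116 against 6357.

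Genes of oxidant production, oxidant removal and metal binding were mostly higher as deposited. Of 17 members past the level filter, from a list of 38, 12 stood at least 2-fold above wild type and 3 at least 2-fold below, and the median log2 difference was 1.65. These became 3 higher and 5 lower with equal control medians. Duoxa1, the partner of an epithelial oxidase, read 535 against 8.71 and was at least 15.4-fold higher (4.73-fold by the authors' deposited table). The metallothionein Mt2 read 8069 against 1593 and was 5.07-fold higher, and Ncf4, a subunit of the phagocyte oxidase, read 3282 against 713. Sod3, the extracellular superoxide dismutase, was lower at 984 against 2813, 2.86-fold lower, and the oxidase gene Nox4 read 1282 against 2603.

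As deposited, BMP, TGF-β and Wnt pathway genes were divided, as were all named genes (37.5% higher and 38.2% lower). Secreted antagonists were among the higher ones. For the BMP and TGF-β pathways, of 28 members past the level filter, from a list of 49, 9 stood at least 2-fold above wild type and 12 at least 2-fold below, and the median log2 difference was -0.77. Grem1, an antagonist of BMP, read 830.1 against 65.3 and was 12.7-fold higher (4.84-fold by the authors' deposited table), and Sostdc1, another, was at least 4.65-fold higher (2.23-fold by the authors' deposited table). Smad6, an inhibitory SMAD of endothelium, read 571 against 5906 and was 10.4-fold lower. Wnt pathway genes gave 5 higher and 5 lower of 16. With equal control medians these became 2 and 9, and the BMP and TGF-β counts became 3 higher and 16 lower. Wnt10a, a ligand of skin and its appendages, read 276 against 48.3 and was 5.72-fold higher (2.50-fold by the authors' deposited table), and Dkk2, an antagonist, was at least 6.06-fold higher (3.48-fold by the authors' deposited table). Wnt7a was at least 6.46-fold lower (2.32-fold by the authors' deposited table). FGF, VEGF, PDGF, HGF and Notch genes were mostly lower, with 3 higher and 11 lower of 20 and a median of -1.20. With equal control medians 1 was higher and 17 were lower. Pdgfc read 1735 against 191 and was 9.08-fold higher. The vessel-stabilising ligand Angpt1 read 728 against 3455 and was 4.75-fold lower. The Notch target Hey1 read 451 against 2373 and was 5.26-fold lower. Fgfr4, an FGF receptor, read 175 against 1581 and was 9.01-fold lower.

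Prostaglandin and leukotriene genes lay past 2-fold in both directions. Of 16 members past the level filter, from a list of 37, 12 stood at least 2-fold above wild type and 4 at least 2-fold below, and the median log2 difference was 1.34. The counts were 2 higher and 4 lower with equal control medians. Pla2g7, a phospholipase that inactivates platelet-activating factor, read 6455 against 796 and was 8.11-fold higher. Ptger4, a receptor for prostaglandin E2, read 2152 against 393 and was 5.47-fold higher. Hpgd, the degrading enzyme given above, and Ptgfr, the receptor for prostaglandin F2α, at 62.3 against 362, were lower.

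Developmental transcription factor genes were more often lower than higher. Of 32 members past the level filter, from a list of 94, 7 stood at least 2-fold above wild type and 17 at least 2-fold below, and the median log2 difference was -1.20. Pitx1 and Tfap2a, described above, were among the higher ones, and Sox2, also given above, was lower. Hoxb5, a lung mesenchyme factor, read 122 against 871 and was 7.11-fold lower (3.94-fold by the authors' deposited table), and Klf2, the factor of endothelium under flow, read 1254 against 6245 and was 4.98-fold lower. For immediate early genes, of 13 members past the level filter, from a list of 25, 7 stood at least 2-fold above wild type and 3 at least 2-fold below, and the median log2 difference was 1.14. These became 2 higher and 5 lower with equal control medians. Atf3, a stress-induced factor, read 2696 against 345 and was 7.81-fold higher, and Egr2 read 1066 against 146 and was 7.31-fold higher. Myc read 667 against 197 and was 3.39-fold higher. Bhlhe40, a repressor in the circadian clock that is also induced by hypoxia, read 7404 against 1378 and was 5.37-fold higher. Cdkn1c, encoding the cell cycle inhibitor p57, read 285 against 728 and was 2.56-fold lower.

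Across the 67 lists, which hold 1957 genes, 940 were named and 915 passed the filter. Of the 64 lists with at least 3 such members, 32 had a median log2 difference of at least 1, 16 had one of -1 or below, and 16 lay between. Of 504 genes past 2-fold with several listed probe sets, all listed probe sets agreed in direction for 498. Only probe sets at least 2-fold apart in some pair of arrays are listed. Unchanged ones do not enter, so this agreement is partly set in advance. Over all 653 genes past the level filter with several listed probe sets, the median range between them was 0.47 in log2.

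**Figure D5:**
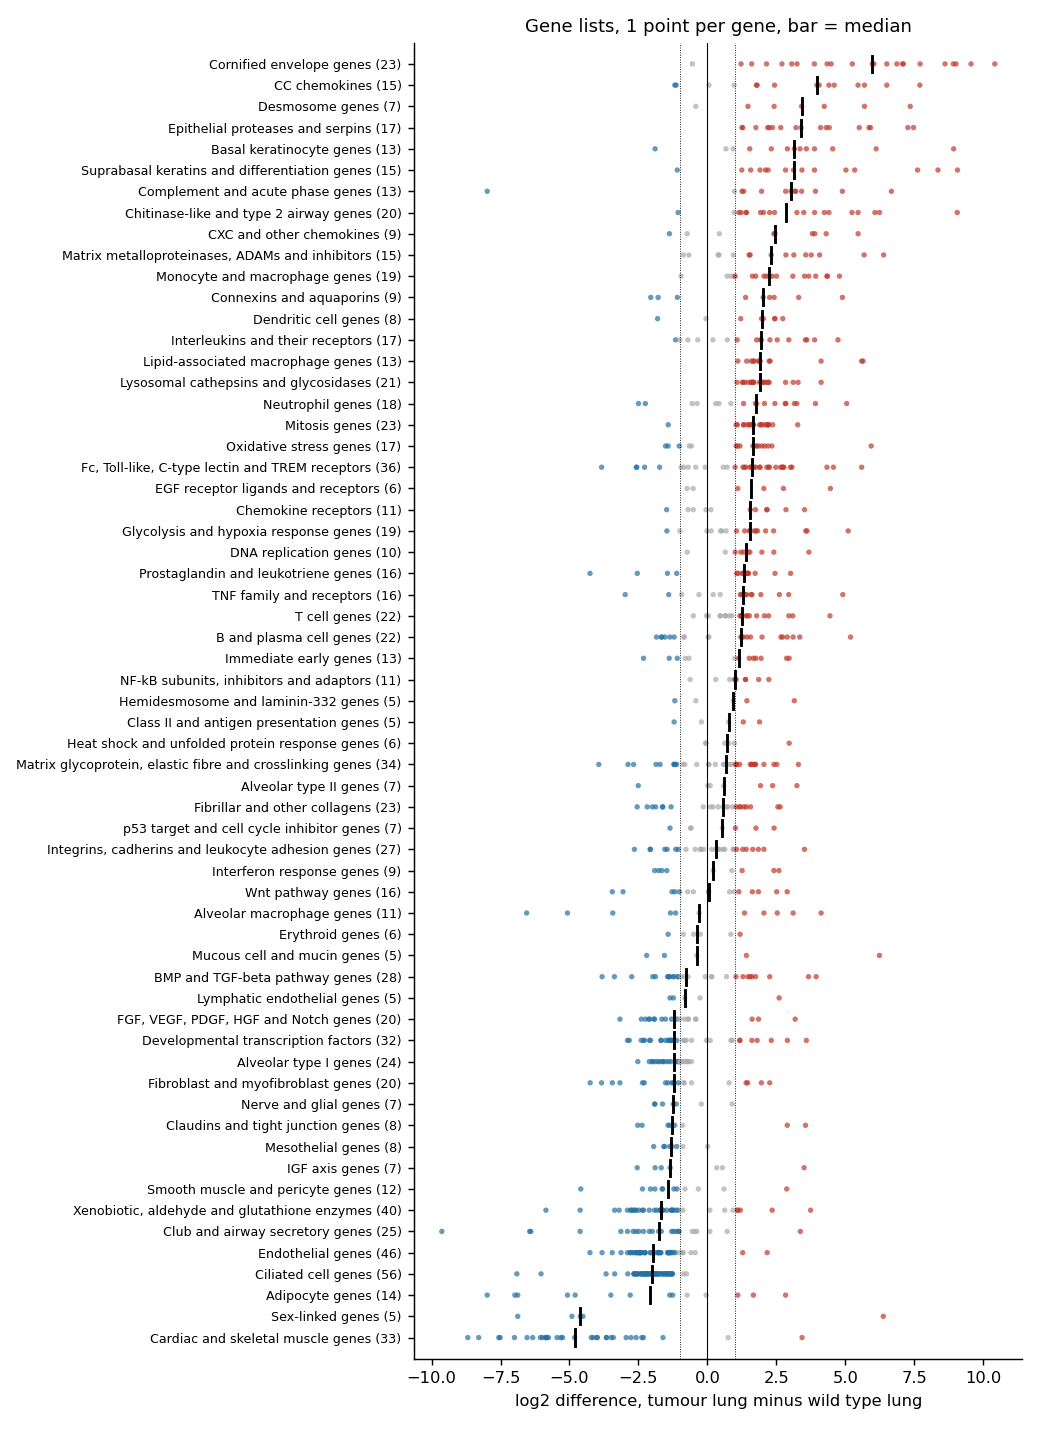
The log2 difference of tumour lung minus wild type lung (horizontal axis) for each gene past the level filter, by gene list (rows, with the number of genes), for lists with at least 5 such genes. Points are genes, red at 2-fold or more higher, blue at 2-fold or more lower and grey between, and the black bar is the list median. Cornified envelope genes have the highest median, 5.98, and cardiac and skeletal muscle genes the lowest, -4.81.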

How the data were processed

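Biotin-labelled total RNA from 1 lung sample per mouse was hybridised to 1 Affymetrix array each, per the labels' protocols, with 45101 probe sets that include 64 controls. The values used are the deposited linear intensities, 1 for each probe set on each array. The sources used here do not say how the authors summarised and scaled them, and the submitters' processing notes name Partek without a version. The authors also deposited 3 tables of linear ratios between pairs of samples, per the file headers, and each holds the ratio of KA2 to WT. Folds credited to the authors' deposited table are that ratio, from the first of the 3 that lists the probe set. The log2 of those ratios and the log2 differences computed here had a Pearson correlation of 0.94 across the 3229 probe sets of the table for this pair, which are not independent replicates. The array medians were 128 and 124, precision could not be estimated from 1 array per side, and depth has no meaning for an array.

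The log2 difference of the deposited intensities, KA2 minus WT, was computed with no further scaling. Probe sets were named through the gene symbols of the deposited tables, which list 4310 probe sets (9.56%), 3858 of them with 1 symbol, and symbols were updated through RefSeq (GRCm38.p6). A gene with several listed probe sets took the one of highest mean. Of the 2260 higher and 2541 lower probe sets past 2-fold here, 1399 and 1423 were named. A list member without a name may thus have differed by under 2-fold or by more, or may lack a probe set. Promoters came from RefSeq and were found for 2193 named genes. The members and lists were chosen with earlier results of these data known. Named genes were the 12 highest and 12 lowest, in each list up to 6 members past 2-fold that differed most, up to 3 against the list's median, and a set given whatever its value. A few genes that this rule takes are not reported here. No p-value was computed. The alternatives were other scalings, level filters, thresholds, probe set rules, the authors' ratios, and leaving out sex-linked, muscle and adipocyte genes, the last 2 chosen after seeing the data. The steps were tested on simulated data. The scripts ran in Python 3.11.15 with pandas 2.3.3, numpy 2.4.6, matplotlib 3.10.9 and scipy 1.17.1.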

Additional observations from a re-analysis of the deposited data

How the results depend on the processing

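The count of genes at least 2-fold higher in the tumour lung, 1056, became 422 with equal medians of the hybridization controls and 463 with the median control difference removed. It was 696 with a level filter at the 75th percentile, 652 at a threshold of 3-fold and 2260 when all probe sets were counted. The count of genes lower, 1074, became 587 at 3-fold and 2541 over all probe sets. Under the remaining alternatives these counts ran from 846 to 1399 for higher and from 724 to 1465 for lower genes. Of 600 list medians recomputed under an alternative, 34 changed sign. In 32 of these the reported median was under 1 in size; in the other 2 it was larger: the IGF axis median was 0.34 without probe sets of shared sequence, and that of NF-kB genes was -0.11 with equal control medians. Of 1776 such values for single genes, 9 changed sign, 6 of them for a gene under 2-fold. The others were past 2-fold: Dst was 1.44 as the median over its probe sets, and Nfkb2 and Relb were -0.11 and -0.091 with equal control medians. No paired analysis was possible because each group had 1 array. The spread between mice was not measured, so no difference here can be set against it, and a dim intensity limits a fold to a lower bound.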

Other observations

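Some of the large differences belong to genes in none of the lists, and the genes given here were chosen after their values were seen. Barrier and defence genes of skin were among those that were higher. Cst6, a cystatin of the epidermis, read 3923 against 8.49 and was at least 113-fold higher. Calm4, a calmodulin-like protein of the skin, read 3905 against 49.3 and was 79.2-fold higher (25.04-fold by the authors' deposited table). Asprv1, the protease that processes filaggrin, read 1777 against 35.4 and was 50.3-fold higher (19.5-fold by the authors' deposited table). The β-defensin genes Defb3 and Defb6, which encode antimicrobial peptides of mouse epithelia, read 2299 against 16.7 and 810.2 against 23.7. Crabp2, a retinoic acid binding protein of skin, read 744 against 6.56.

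Other genes outside the lists that were higher come from several systems. Slc26a4, the anion exchanger pendrin, read 10183 against 117 and was 87.3-fold higher. Npy, encoding neuropeptide Y, read 2813 against 19.2 and was at least 80.9-fold higher (14.9-fold by the authors' deposited table), and Bex1, an adaptor best known from neurons, read 14475 against 348 and was 41.6-fold higher. Wfdc17, a secreted protein of activated macrophages in mice, read 20195 against 575 and was 35.1-fold higher (19.1-fold by the authors' deposited table). Htr2b, a serotonin receptor, read 1198 against 34.2 and was at least 34.5-fold higher (6.48-fold by the authors' deposited table). Bex2, the close relative of Bex1, went the other way at 105 against 1397, 13.3-fold lower.

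Among genes outside the lists that were lower, several are known from heart muscle, such as Ckmt2, a mitochondrial creatine kinase, at 37.8 against 1981, and Fabp3 at 139 against 3000. Further genes that were lower belong to other systems or to several. Nptx1, a neuronal pentraxin, read 130.1 against 2141 and was 16.5-fold lower (9.33-fold by the authors' deposited table). Hamp, encoding the iron hormone hepcidin, read 82.2 against 1156 and was 14.1-fold lower (6.09-fold by the authors' deposited table), and Mapt, encoding tau, read 265 against 2360 and was 8.90-fold lower. Tubb1, the tubulin of platelets, read 69.1 against 726 and was 10.5-fold lower (3.47-fold by the authors' deposited table), lower like the platelet genes Ppbp (1053 against 2729) and Clec1b (118 against 708).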
